A study of Homo sapiens with 12 samples.

Results

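The immediate early transcription factors are 10 genes, FOS, FOSB, FOSL1, JUN, JUNB, JUND, EGR1, EGR2, EGR3 and IER2, whose mRNAs were followed in a methotrexate-treated colon adenocarcinoma line, HT29, which is established, human and described as sensitive to the drug. A gene was included when an array probe set was annotated with its symbol alone. This held for 9 of the 10, with 1 probe set each, out of 18377 genes tested, and EGR2 was not analysed here. The 12 arrays were Affymetrix human gene arrays in 4 groups of 3, which the titles call biological replicates. They were an untreated control, taken as 0 h from the series design, and cells kept for 8, 24 or 48 h with 70 nM methotrexate, an antifolate. All groups were the same parental line in the same serum-containing medium, and only the starting point has untreated arrays in what was analysed here, so treatment and time in culture cannot be told apart. The values are log2 ratios, with the median of the 3 control arrays as the zero point, which removes absolute levels. Whether a low signal lies near background is therefore unknown for each gene, as is the ranking of the genes by abundance.

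Immediate early genes are transcribed within minutes of a growth factor or stress signal, without prior protein synthesis, and their mRNAs are short-lived. FOS and JUN family proteins are basic leucine zipper factors that pair to form AP-1, in which JUN proteins can pair with one another and FOS proteins need a JUN partner. EGR proteins are zinc finger factors that bind GC-rich sites. In many cells ERK signalling drives FOS and EGR1 through serum response factor and its ternary complex partners, which bind CArG boxes, and HT29 cells carry an activating BRAF mutation upstream of ERK. In colon epithelium these genes are known as readouts of growth factor and stress signalling.

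The sequences just upstream of the start sites are shown for EGR1 and FOS, the members lower than control by the most at every time, and for JUN and JUND, which were lower at 8 h and higher at 24 h. They are from RefSeq on build GRCh38.p14, which is not the hg19 build of the arrays, and run 5′ to 3′ over the 250 bases before the start. The windows are chr5:138465229-138465478 (+ strand) for EGR1, chr14:75278578-75278827 (+ strand) for FOS, chr1:58784048-58784297 (- strand) for JUN and chr19:18281623-18281872 (- strand) for JUND. Capitals mark matches to the motifs named after the sequences.
EGR1: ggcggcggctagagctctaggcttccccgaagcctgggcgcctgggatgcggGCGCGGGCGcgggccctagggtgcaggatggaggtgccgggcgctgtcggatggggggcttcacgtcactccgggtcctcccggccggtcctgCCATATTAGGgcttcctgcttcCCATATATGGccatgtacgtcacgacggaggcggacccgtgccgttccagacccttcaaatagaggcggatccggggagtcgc
FOS: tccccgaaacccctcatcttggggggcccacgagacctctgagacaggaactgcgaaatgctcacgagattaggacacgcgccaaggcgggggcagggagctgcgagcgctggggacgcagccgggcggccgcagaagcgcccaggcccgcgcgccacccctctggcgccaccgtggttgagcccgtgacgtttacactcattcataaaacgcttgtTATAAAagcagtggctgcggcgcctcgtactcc
JUN: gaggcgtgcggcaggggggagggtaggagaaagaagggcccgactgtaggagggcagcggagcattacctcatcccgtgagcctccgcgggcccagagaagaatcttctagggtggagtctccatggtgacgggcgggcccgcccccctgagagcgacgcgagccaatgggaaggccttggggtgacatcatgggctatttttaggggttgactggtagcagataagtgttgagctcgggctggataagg
JUND: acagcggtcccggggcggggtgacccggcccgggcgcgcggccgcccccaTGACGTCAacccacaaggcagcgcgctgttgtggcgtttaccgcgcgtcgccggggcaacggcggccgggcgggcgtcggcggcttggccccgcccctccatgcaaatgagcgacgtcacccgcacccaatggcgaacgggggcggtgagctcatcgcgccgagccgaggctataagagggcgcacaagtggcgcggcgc
Of the 9 measured members, 7 matched the promoter table, and FOSL1 and EGR3 are named only. Motifs were searched on both strands in these windows and in all 35114 windows of the table, and no 2 matches in the members' windows overlapped. EGR1 held 2 CArG boxes, at 105 to 96 and 83 to 74 bases before the start, and it alone of the 7 held any, against 1.16% of all windows. A box more than 250 bases before the start, in FOS or any other member, lay outside the windows and was not searched. EGR1 also held the EGR site GCGNGGGCG at 198 to 190 bases, a motif found in 8.41% of all windows. The TATA box TATAAA, added after the sequences were seen, stood 33 to 28 bases before the start in FOS. It stood at 30 to 25 bases in FOSB and at 31 to 26 bases in JUNB. Of all windows, 10.7% held it at any position and on either strand, so that share is not one for this position. JUND held the cyclic AMP response element TGACGTCA at 200 to 193 bases, which 1.65% of all windows hold. The AP-1 site TGANTCA was in none of the 7 windows and in 6.57% of all windows, and JUN and IER2 held no exact match to any of these motifs. Near variants of a motif, such as tgacatca in the JUN window, were not counted, so the windows may hold sites of these kinds. The members' windows were GC-rich, from 62.0% in JUN to 74.8% in JUND, against a median of 58.0% over all windows. FOSB, IER2, JUNB and JUND all lie on chromosome 19.

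**Figure D1:**
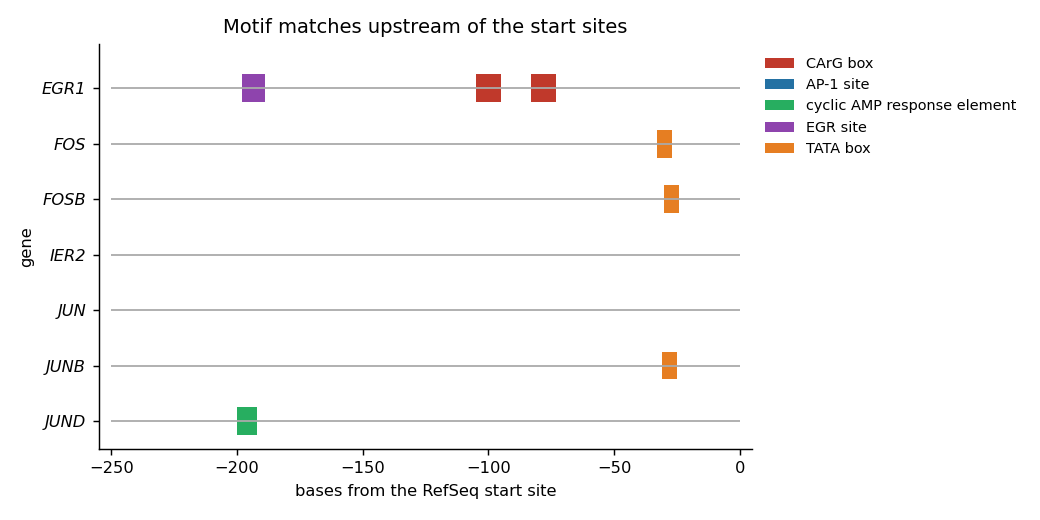
Positions of motif matches (coloured blocks) along the 250 bases before the RefSeq start site of 7 members, with distance from the start in bases on the horizontal axis. The 2 CArG boxes are in EGR1, the TATA boxes of FOS, FOSB and JUNB lie within 33 bases of the start, and IER2 and JUN show no match.

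Over the 4 groups, 8 of the 9 members differed by limma's moderated F test, all but EGR3, against 38.8% of all genes. At 8 h, 6 members were lower than control (EGR1, FOS, JUNB, JUN, IER2 and JUND) and 1, FOSL1, was higher, where 12.0% of all genes were called lower and 12.1% higher. At 24 h, 3 were lower (EGR1, FOS and JUNB) and 3 higher (JUND, FOSL1 and JUN), against 8.02% and 8.69% of genes. At 48 h, 4 were lower (EGR1, FOS, JUNB and IER2) and 2 higher (JUND and FOSL1), against 12.3% and 13.0%. A call needs an adjusted p under 0.05 (Benjamini-Hochberg, all genes tested together), and errors of differences are limma's moderated standard errors with 3 arrays per group. The 3 treated values lay wholly to one side of the 3 control values for 8, 7 and 7 members at the 3 times in turn, where 37.9%, 33.0% and 35.7% of all genes did so. All 3 times are set against one and the same 3 control arrays, so their values are given side by side and not as separate support for one another. The members' median differences were -0.28, -0.04 and -0.17 in time order, beside 0.02, 0.02 and 0.01 over all genes.

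**Figure D2:**
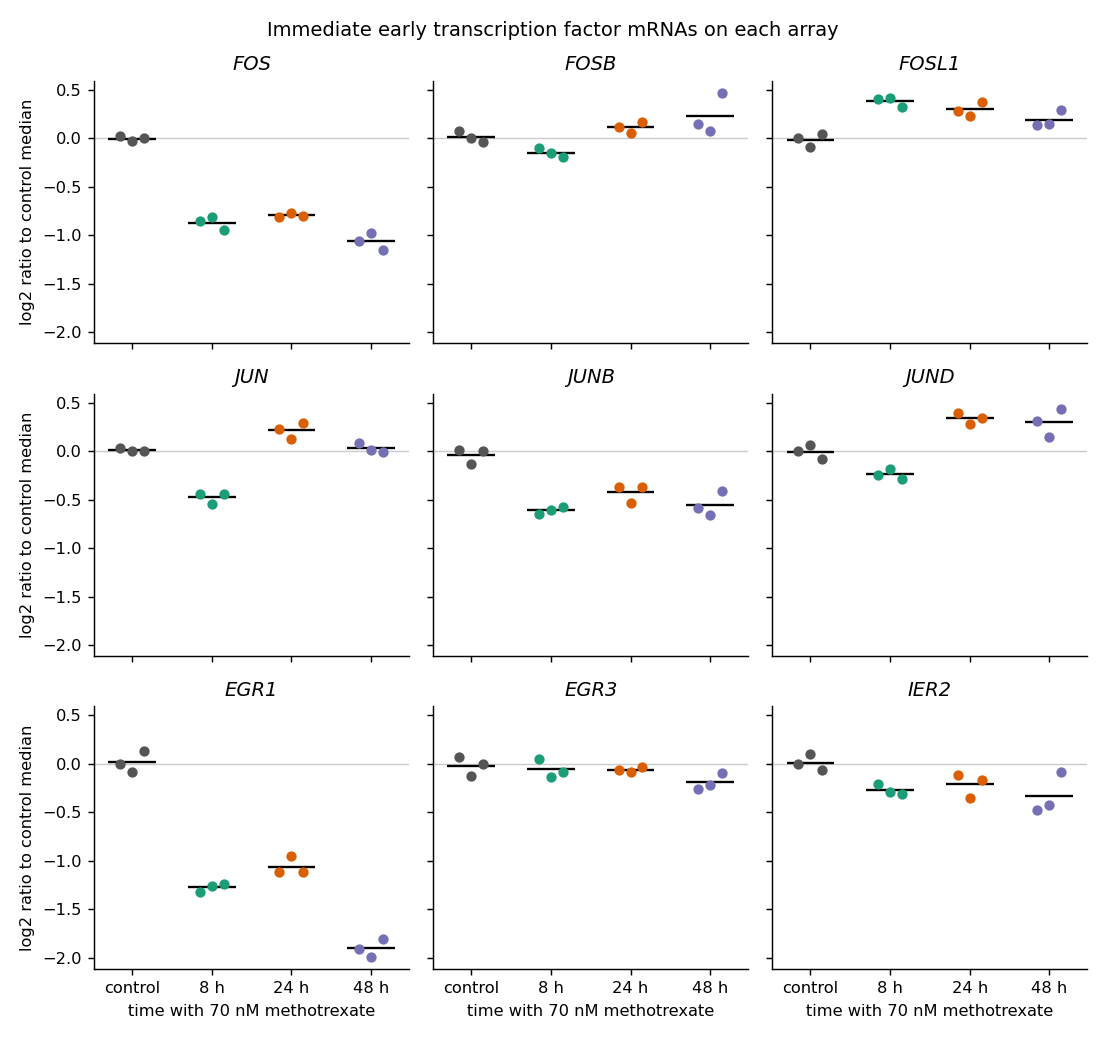
Log2 ratio to the control median (vertical axis) on each of the 12 arrays for the 9 measured members, by group; points are arrays and bars are group means. EGR1 falls from 0.02 in control to -1.90 at 48 h, JUN and JUND lie below control at 8 h and above it at 24 h, and EGR3 overlaps control in every group.

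The array data as a whole set the precision of these values. Replicates differed by a root mean square of 0.09 to 0.14 over genes, except that 48 h replicate 3 differed by 0.21 and 0.18 from the others of its group. It also had the lowest array weight, 0.199. The highest weight, 6.52, was that of 48 h replicate 2, so values at 48 h under array weights rest mostly on that 1 array. Without 48 h replicate 3, 6 members were called at 48 h, 1 higher and 5 lower, in place of 2 higher and 4 lower. The same fit called 4439 of all genes at 48 h, in place of 4649. Colon epithelial markers could not be checked for presence because levels are lost. Of 10 measured, 2 (CEACAM5 and KRT19), 3 (with KRT20) and 1 (KRT20) were higher than control at 8, 24 and 48 h. At each time 0 were lower (0, 0 and 1 lower at an unadjusted limma p under 0.05). Of all genes, 12.1%, 8.69% and 13.0% were called higher, so the marker share at 48 h was below that of all genes. KRT19 at 8 h was not called on dropping any 1 control or 8 h array (0.0531 to 0.0749) or after quantile normalization (0.139). The part of these epithelial markers in the members' values was not tested. Markers of fibroblasts, leukocytes and endothelium differed from control by -0.13 to 0.21 over the 3 times, and limma called 0 of 14 measured (0, 1 and 0 at an unadjusted p under 0.05).

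EGR1, a zinc finger activator of growth factor responses, was 2.44-fold lower at 8 h, 2.11-fold lower at 24 h and 3.78-fold lower at 48 h. Its control values were 0.00, -0.09 and 0.13. The treated values were -1.32, -1.26 and -1.24 at 8 h, -1.12, -0.96 and -1.11 at 24 h, and -1.91, -1.99 and -1.81 at 48 h. Every treated array lay below every control array by over 1 log2 unit at 8 and 48 h, and the 48 h arrays were the lowest of all. The differences from control were -1.29 (SE 0.07, adjusted p = 5.18e-08), -1.08 (SE 0.07, adjusted p = 3.37e-07) and -1.92 (SE 0.07, adjusted p = 1.53e-09). At 48 h this placed EGR1 as number 9 from the lowest of the 18377 genes, after number 55 at 8 h and number 58 at 24 h. From 24 to 48 h it fell by 0.84 (SE 0.07, adjusted p = 1.41e-05), number 12 from the lowest, and all 3 arrays at 48 h were below all 3 at 24 h. The step from 8 to 24 h, 0.21 (SE 0.07, adjusted p = 0.0494), lay at the threshold. Dropping control replicate 1, any 8 h array, any 24 h array or 48 h replicate 1 ended that call (0.0606 to 0.182), as did a robust prior (0.0518), single probe sets (0.0637) and quantile normalization (0.05, adjusted p = 0.999).

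EGR3, a related zinc finger factor, was not called in any comparison. Its values were 0.07, -0.13 and 0.00 in control, 0.05, -0.14 and -0.08 at 8 h, -0.06, -0.08 and -0.04 at 24 h, and -0.26, -0.22 and -0.10 at 48 h. Each treated group overlapped control, while the 48 h arrays lay just below those at 24 h. The difference from control at 48 h was -0.17 (95% interval -0.32 to -0.03, adjusted p = 0.0750), and dropping control replicate 2 (0.0345) or 48 h replicate 3 (0.0292) brought it past the threshold, as did array weights (0.0112) and centring (0.0477). At 8 h the interval was -0.18 to 0.11 and at 24 h -0.19 to 0.10, intervals that do not reach the size of the fall in EGR1. The order of its group means is not beyond the spread between arrays.

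FOS, the inducible partner that forms AP-1 with JUN proteins, was 1.83-fold lower at 8 h, 1.73-fold lower at 24 h and 2.08-fold lower at 48 h. Control arrays gave 0.02, -0.03 and 0.00. Treated arrays gave -0.85, -0.81 and -0.95 at 8 h, -0.81, -0.77 and -0.80 at 24 h, and -1.06, -0.97 and -1.15 at 48 h. The gap between the control and treated ranges exceeded 0.7 at each time, while the arrays of a group spanned less than 0.2. The differences were -0.87 (SE 0.05, adjusted p = 1.78e-07), -0.79 (SE 0.05, adjusted p = 5.86e-07) and -1.06 (SE 0.05, adjusted p = 2.50e-08). From 8 to 24 h the difference was 0.08 (95% interval -0.04 to 0.20, adjusted p = 0.406), although the ranges did not overlap, and FOS fell by 0.27 from 24 to 48 h (SE 0.05, adjusted p = 0.00706). Against 8 h, the 48 h arrays were lower by 0.19 (adjusted p = 0.0169), a call that ended on dropping 8 h replicate 1 or 2 or 48 h replicate 3 (0.0506 to 0.0790) and in a fit of only these 2 groups (0.0749). Quantile normalization ended both calls between treated groups (-0.16, adjusted p = 0.372, for 48 h against 24 h, and 0.103 for 48 h against 8 h). Array weights gave -0.12 for 48 h against 8 h.

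FOSL1, which encodes FRA-1, a FOS family protein without the strong activation domain of FOS, was the member of the family called above control. It was 1.32-fold higher at 8 h, 1.24-fold at 24 h and 1.15-fold at 48 h. Its values were 0.00, -0.09 and 0.05 in control, 0.40, 0.42 and 0.33 at 8 h, 0.29, 0.23 and 0.38 at 24 h, and 0.14, 0.15 and 0.29 at 48 h. All 9 treated arrays were above the 3 control arrays, with the 8 and 24 h ranges overlapping each other. The differences were 0.40 (SE 0.06, adjusted p = 0.000277), 0.31 (SE 0.06, adjusted p = 0.00252) and 0.21 (SE 0.06, adjusted p = 0.0197). Dropping control replicate 2 (0.0941) or 48 h replicate 3 (0.0699), a fit of only these 2 groups (0.0543) or quantile normalization (0.214) ended the 48 h call. FOSL1 was lower at 48 h than at 8 h by 0.19 (SE 0.06, adjusted p = 0.0259), and the same call failed when 8 h replicate 1 or 2 or 48 h replicate 1 or 2 was dropped (0.0727 to 0.0937), in the fit of the 2 groups (0.0561) and after quantile normalization (0.281).

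FOSB, the third FOS family protein measured, was not called against control. Its arrays read 0.08, 0.00 and -0.04 in control, -0.10, -0.15 and -0.19 at 8 h, 0.12, 0.05 and 0.17 at 24 h, and 0.14, 0.08 and 0.47 at 48 h. The 8 h arrays were the lowest of the 4 groups, and 48 h replicate 3 was the highest single array. The differences from control were -0.16 (SE 0.08, adjusted p = 0.209), 0.10 (SE 0.08, adjusted p = 0.503) and 0.22 (SE 0.08, adjusted p = 0.0777). The first became a call when 48 h replicate 3 was dropped (0.0286), under array weights (0.0222) and in a fit of only 2 groups (0.0463). The last was 0.10 when 48 h replicate 3 was dropped (0.266) and became a call when 48 h replicate 2 was (0.0253). FOSB rose from 8 to 48 h by 0.38 (SE 0.08, adjusted p = 0.00332), or by 0.26 without 48 h replicate 3, and the 2 groups did not overlap. The rise from 8 to 24 h was 0.26 (SE 0.08, adjusted p = 0.0420), and dropping any 1 of the control, 8 h or 24 h arrays ended the call (0.0505 to 0.145), as did single probe sets (0.0602) and quantile normalization (0.112).

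JUN, the founding AP-1 subunit, fell 1.40-fold at 8 h, stood 1.15-fold above control at 24 h and differed by 0.02 on the log2 scale at 48 h. Control arrays read 0.03, 0.00 and -0.0045. The 8 h arrays read -0.45, -0.54 and -0.45, those at 24 h 0.23, 0.13 and 0.28, and those at 48 h 0.08, 0.02 and -0.01. The 8 h group lay apart below all others and the 24 h group apart above them, and the 48 h and control ranges overlapped. The differences from control were -0.49 (SE 0.05, adjusted p = 2.07e-05), 0.21 (SE 0.05, adjusted p = 0.0156) and 0.02 (95% interval -0.09 to 0.13, adjusted p = 0.872). Between 8 and 24 h JUN rose 1.62-fold (0.69, SE 0.05, adjusted p = 2.80e-06), number 145 from the highest of all genes. Dropping control replicate 2 or 24 h replicate 1 or 3 (0.0566 to 0.0808) or quantile normalization (0.103) ended the call over control at 24 h. From 24 to 48 h it fell by 0.19 (SE 0.05, adjusted p = 0.0373), a call that needed each of control replicates 1 and 2, 8 h replicate 3, 24 h replicates 1 and 3 and 48 h replicates 2 and 3 (0.0504 to 0.159 on dropping any). It also ended on centring (0.0506), with the other groups left out of the fit (0.124) and after quantile normalization (0.256).

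JUND, which in many cells is the JUN protein of resting or slowly dividing cells, also crossed the control level. Its values were 0.00, 0.06 and -0.09 in control and -0.24, -0.18 and -0.29 at 8 h. Those at 24 h were 0.39, 0.28 and 0.34, and those at 48 h were 0.31, 0.15 and 0.43. No treated range overlapped control, and the 24 and 48 h ranges overlapped each other. The differences were -0.23 (SE 0.07, adjusted p = 0.0281) at 8 h, 0.34 (SE 0.07, adjusted p = 0.00399) at 24 h and 0.30 (SE 0.07, adjusted p = 0.00542) at 48 h. The fall at 8 h was no longer called on dropping control replicate 1 or 2 or 8 h replicate 1 or 3 (0.0655 to 0.118), and quantile normalization ended the calls at 8 h (0.121) and 48 h (0.19 on the log2 scale, adjusted p = 0.194). With array weights the 48 h difference was 0.15. Between 8 and 24 h JUND rose 1.49-fold (0.58, SE 0.07, adjusted p = 7.93e-05), and 48 h against 24 h gave no call (-0.04, 95% interval -0.19 to 0.11, adjusted p = 0.853).

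JUNB, a JUN protein that can restrain JUN in AP-1, was lower at every time. Control arrays gave 0.01, -0.14 and 0.00, against -0.65, -0.61 and -0.58 at 8 h, -0.38, -0.54 and -0.37 at 24 h, and -0.59, -0.66 and -0.41 at 48 h. All 9 treated arrays lay below the 3 controls, while the 24 and 48 h ranges overlapped. JUNB was 1.48-fold lower at 8 h (-0.57, SE 0.07, adjusted p = 6.13e-05), 1.31-fold lower at 24 h (-0.38, SE 0.07, adjusted p = 0.00194) and 1.43-fold lower at 48 h (-0.51, SE 0.07, adjusted p = 0.000136). The step from 8 to 24 h was 0.18 (SE 0.07, adjusted p = 0.0907), and dropping 24 h replicate 2 (0.0388) or 48 h replicate 3 (0.0357) made it a call, as did array weights (0.00949). Quantile normalization, which kept the sign, ended all 3 calls against control, at -0.34 (adjusted p = 0.143), -0.27 (adjusted p = 0.311) and -0.31 (adjusted p = 0.200).

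IER2, a small nuclear protein of the early response that is not itself of the FOS, JUN or EGR families, was lower at 8 and 48 h, with arrays that spread widely at 48 h. Its values were 0.00, 0.10 and -0.06 in control, -0.21, -0.30 and -0.31 at 8 h, -0.12, -0.36 and -0.16 at 24 h, and -0.48, -0.42 and -0.09 at 48 h. The 9 treated arrays were all below the 3 controls, and the treated groups overlapped one another. IER2 fell by 0.28 at 8 h (SE 0.09, adjusted p = 0.0429) and by 0.34 at 48 h (SE 0.09, adjusted p = 0.0159), and differed by -0.22 at 24 h (SE 0.09, adjusted p = 0.133). Dropping any control or 8 h array or 24 h replicate 3 (0.0514 to 0.158), single probe sets (0.0655) or quantile normalization (0.169) ended the 8 h call. The 48 h call ended on dropping control replicate 2 or 48 h replicate 1 or 2 (0.0652 to 0.0710) and after quantile normalization (0.0801), and the difference was -0.46 (adjusted p = 0.000403) when 48 h replicate 3 was dropped. Dropping that array (0.0249) or array weights (0.0128) made the 24 h difference a call.

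**Figure D3:**
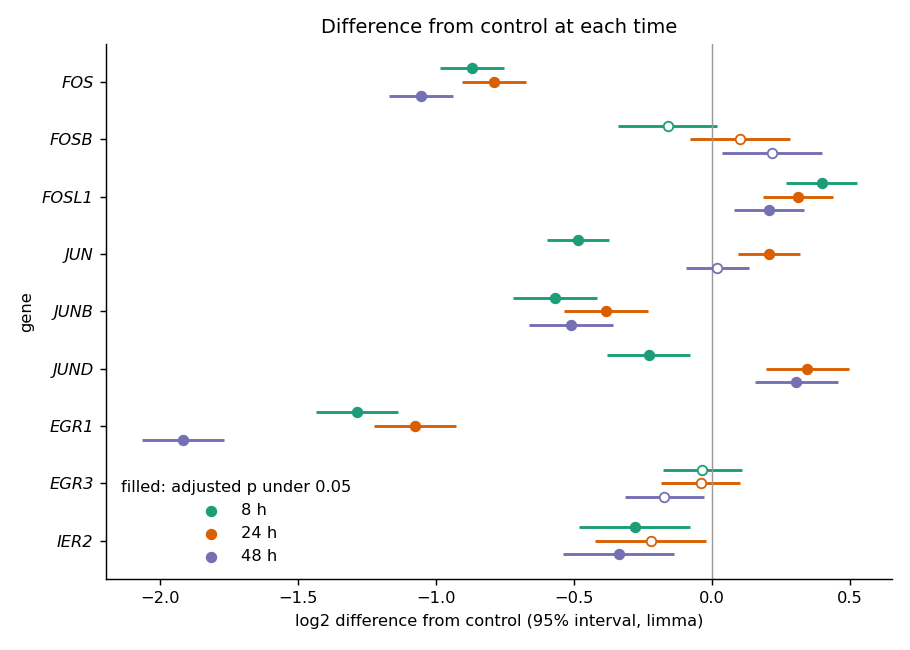
Log2 difference from control (horizontal axis) with limma's 95% interval for each member at 8, 24 and 48 h; filled points passed an adjusted p under 0.05. EGR1 and FOS lie farthest to the left at each time, FOSL1 lies right of 0 at each time, and JUN and JUND change side between 8 and 24 h.

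Between the treated groups, limma called 4 of the 9 members higher at 24 h than at 8 h (JUN, JUND, FOSB and EGR1) and 0 lower (0 lower at an unadjusted p under 0.05), where 9.99% of all genes were called higher and 9.40% lower. The count was 2 on dropping control replicate 1, any 8 h array, or 24 h replicate 1 or 3, with JUN and JUND called in each of these fits. Of all genes, these fits called 2726 to 3423 in either direction, in place of 3564. From 24 to 48 h, 3 were lower (EGR1, FOS and JUN) and 0 higher (0 at an unadjusted p under 0.05), against 4.86% of genes lower and 5.26% higher. From 8 to 48 h, 3 were higher (JUND, JUN and FOSB) and 3 lower (EGR1, FOSL1 and FOS), against 15.3% and 14.4%.

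Differences between 2 members on the same array are free of any shift of the whole array. The pairs were chosen after the values were seen. FOSL1 minus FOS averaged -0.01 ± 0.05 in control (SD, n = 3), 1.25 ± 0.02 at 8 h, 1.09 ± 0.08 at 24 h and 1.25 ± 0.17 at 48 h. EGR1 minus FOS averaged 0.02 ± 0.10 in control, against -0.40 ± 0.09 at 8 h, -0.27 ± 0.08 at 24 h and, lowest, -0.84 ± 0.18 at 48 h. In both pairs no treated array overlapped the control arrays. Within the JUN family, JUND minus JUNB averaged 0.03 ± 0.15 in control, then 0.37 ± 0.08 at 8 h, 0.76 ± 0.06 at 24 h and 0.85 ± 0.05 at 48 h, also without overlap. JUN minus JUNB averaged 0.05 ± 0.07 in control and 0.13 ± 0.07 at 8 h, then 0.64 ± 0.03 at 24 h and 0.58 ± 0.16 at 48 h. JUN minus JUNB overlapped control at 8 h and not at 24 or 48 h. As the pairs were chosen for moving apart, these values are a description with no test.

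**Figure D4:**
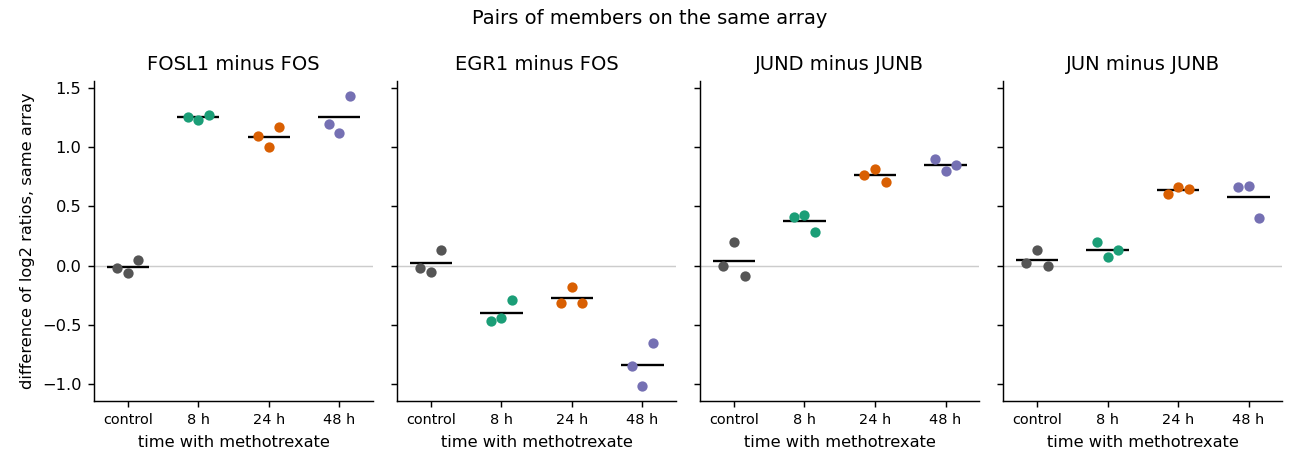
Difference between the log2 ratios of 2 members on the same array (vertical axis) by group; points are the 12 arrays and bars are group means. FOSL1 minus FOS averages 1.09 to 1.25 in the treated groups, and JUND minus JUNB averages 0.37 at 8 h and 0.85 at 48 h.

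The gene lists in this and the next paragraphs were chosen with earlier results of these data known. Their counts are a description and not separate support for the members' values. Among other genes of the early response at 8 h, 12 of 29 measured were lower and 0 higher by limma (0 higher at an unadjusted p under 0.05). That is 41.4% lower, beside 12.0% of all genes. At 24 h, 4 were lower and 1 higher (13.8% and 3.45%, beside 8.02% and 8.69%), and at 48 h 8 and 3 (27.6% and 10.3%, beside 12.3% and 13.0%). The list medians were -0.15, -0.08 and -0.05. The orphan nuclear receptor NR4A2 fell by 0.76 at 8 h (SE 0.10) and by 0.70 at 24 h. PPP1R15A, which recruits a phosphatase to eIF2 alpha, fell by 0.74 at 8 h (SE 0.07), and the zinc finger factor KLF6 by 0.54 (SE 0.06). KLF10, a TGF beta response factor, fell by 0.53 at 8 h, by 0.54 at 24 h and by 0.59 at 48 h (SE 0.05). MYC fell by 0.63 at 48 h (SE 0.06). CCN1, a secreted matrix protein, rose by 0.60 at 24 h and by 0.93 at 48 h (SE 0.07), but after quantile normalization it differed by 0.35 (adjusted p = 0.315) and 0.44 (adjusted p = 0.162), and neither was called.

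Among 13 other leucine zipper partners of AP-1, 5 were lower and 0 higher at 8 h (0 higher at an unadjusted limma p under 0.05), 2 lower and 1 higher at 24 h, and 3 lower and 2 higher at 48 h. The lower share was 38.5% at 8 h, 15.4% at 24 h and 23.1% at 48 h, beside 12.0%, 8.02% and 12.3% of all genes, and the higher share 7.69% and 15.4% at 24 and 48 h, beside 8.69% and 13.0%. JDP2, a repressor that dimerises with JUN proteins, fell by 0.80 at 8 h (SE 0.07) and by 0.34 at 48 h (not called after quantile normalization, 0.161), and differed by -0.05 at 24 h (adjusted p = 0.760). ATF2, which pairs with JUN on cyclic AMP response elements, fell by 0.46 at 8 h (SE 0.06). CREB5 rose by 0.49 at 24 h and by 0.46 at 48 h (SE 0.08). MAFG, a small MAF protein, fell by 0.25 at 8 h (SE 0.06) and by 0.22 at 24 h (adjusted p = 0.0175), the latter not called on dropping control replicate 1 or 24 h replicate 1 or 3 (0.0691 to 0.0799), and neither after quantile normalization (0.0961 and 0.0953). NFE2L2, the antioxidant response factor, fell by 0.43 at 48 h (SE 0.09). Its falls of 0.26 at 8 h (adjusted p = 0.0401) and 0.28 at 24 h (adjusted p = 0.0417) ended on dropping any control array, 8 h replicate 2 or 3, 24 h replicate 3 or 48 h replicate 2, and the second also without 24 h replicate 1 (0.0503 to 0.142 and 0.0523 to 0.190). Both ended with single probe sets (0.0601 and 0.0631), and the first after quantile normalization (0.0676). The count at 8 h was 3 without any 1 of the control arrays, 8 h replicate 2 or 3 or 24 h replicate 3, and that at 24 h was 1 without control replicate 1 or 24 h replicate 1 or 3.

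Of 15 ternary complex, serum response factor and EGR co-regulator genes, 2 were lower and 0 higher at 8 h (1 higher at an unadjusted limma p under 0.05), 1 lower and 2 higher at 24 h, and 3 lower and 5 higher at 48 h. The lower share, 13.3%, 6.67% and 20.0% in time order, was near that of all genes at 8 and 24 h (12.0%, 8.02% and 12.3%), and the higher share was 0%, 13.3% and 33.3%, beside 12.1%, 8.69% and 13.0%. MEF2D and MEF2A, which bind AT-rich sites in the JUN promoter, fell by 0.39 (SE 0.05) and 0.27 (SE 0.06) at 8 h. NAB2, a corepressor that is itself induced by EGR1, fell by 0.28 at 24 h (SE 0.06). NAB1, its constitutive relative, rose by 0.32 at 48 h (SE 0.07). ELK3, a ternary complex factor, rose by 0.49 at 48 h (SE 0.07) and by 0.24 at 24 h, the latter not called on dropping control replicate 1 or 3 or 24 h replicate 1 or 2 (0.0571 to 0.102). CRTC1, a CREB coactivator, rose by 0.31 at 48 h (SE 0.08) and by 0.25 at 24 h, the latter not called on dropping any control array, 8 h replicate 2 or 24 h replicate 2 or 3 (0.0533 to 0.158). After quantile normalization none of these rises at 48 h was called: ELK3 differed by 0.27 and NAB1 by 0.20 (adjusted p = 0.146 for both), and CRTC1 by 0.22 (0.0854). Nor were ELK3 (0.14, 0.587) and CRTC1 (0.0944) at 24 h or MEF2A at 8 h (0.0537), and centring ended the ELK3 call at 24 h (0.0501), as single probe sets did that of CRTC1 (0.0541). Array weights gave 0.19 for CRTC1 at 48 h. The count at 8 h was 4 without 48 h replicate 3, and that at 24 h was 1 without control replicate 1.

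Of 23 genes of the ERK, JNK and p38 cascades, 5 were higher and 2 lower at 8 h, 3 and 3 at 24 h, and 5 and 3 at 48 h. The higher share was 21.7%, 13.0% and 21.7%, beside 12.1%, 8.69% and 13.0% of all genes, and the lower share, 8.70%, 13.0% and 13.0%, was below that of all genes at 8 h and near it at 48 h (12.0%, 8.02% and 12.3%). MAP2K6, a kinase that activates p38, fell by 1.01 at 8 h, by 0.53 at 24 h and by 0.73 at 48 h (SE 0.07). RPS6KA4, the nuclear kinase MSK2 downstream of ERK and p38, rose by 0.62 at 8 h (SE 0.07) and MAPK9, which encodes JNK2, by 0.41 (SE 0.08; not called after quantile normalization, 0.0536). At 24 h MAP2K1, which encodes MEK1, rose by 0.34 (SE 0.08, adjusted p = 0.0138; lost without control replicate 2, 0.0570) and RPS6KA1 by 0.33 (SE 0.07). At 48 h the scaffold KSR1 rose by 0.45 (SE 0.07) and MAPK3, which encodes ERK1, by 0.43 (SE 0.06). MAPK3 was called lower at 8 h (-0.39, SE 0.06, limma adjusted p = 0.00056) and was not called at 24 h (0.16, adjusted p = 0.106). Without control replicate 2 the count at 24 h was 3, with 2 higher and 1 lower.

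Genes known as AP-1 or EGR targets went both ways: of 27 measured, 6 were lower and 6 higher at 8 h, 4 lower and 10 higher at 24 h, and 4 lower and 9 higher at 48 h. The higher share was 22.2%, 37.0% and 33.3%, beside 12.1%, 8.69% and 13.0% of all genes, and the lower share 22.2%, 14.8% and 14.8%, beside 12.0%, 8.02% and 12.3%, so near that of all genes at 48 h. Without control replicate 3, 9 were called at 24 h, 4 lower and 5 higher. HBEGF, a ligand of the EGF receptor, fell 2.76-fold at 8 h (-1.46, SE 0.06), by 0.96 at 24 h and by 1.31 at 48 h. Its 9 treated values, from -1.49 to -0.95, were far from the control values of -0.02, 0.00 and 0.03. VEGFA fell by 1.20 at 8 h (SE 0.05). PTGS2, the inducible cyclooxygenase, fell by 0.94 at 8 h, by 0.92 at 24 h and by 1.04 at 48 h (SE 0.08). PLAU, the urokinase protease, rose by 0.42 at 8 h, by 0.96 at 24 h and 2.86-fold at 48 h (1.52, SE 0.08), where its arrays read 1.40, 1.48 and 1.67 against 0.04, -0.05 and 0.00 in control.

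**Figure D5:**
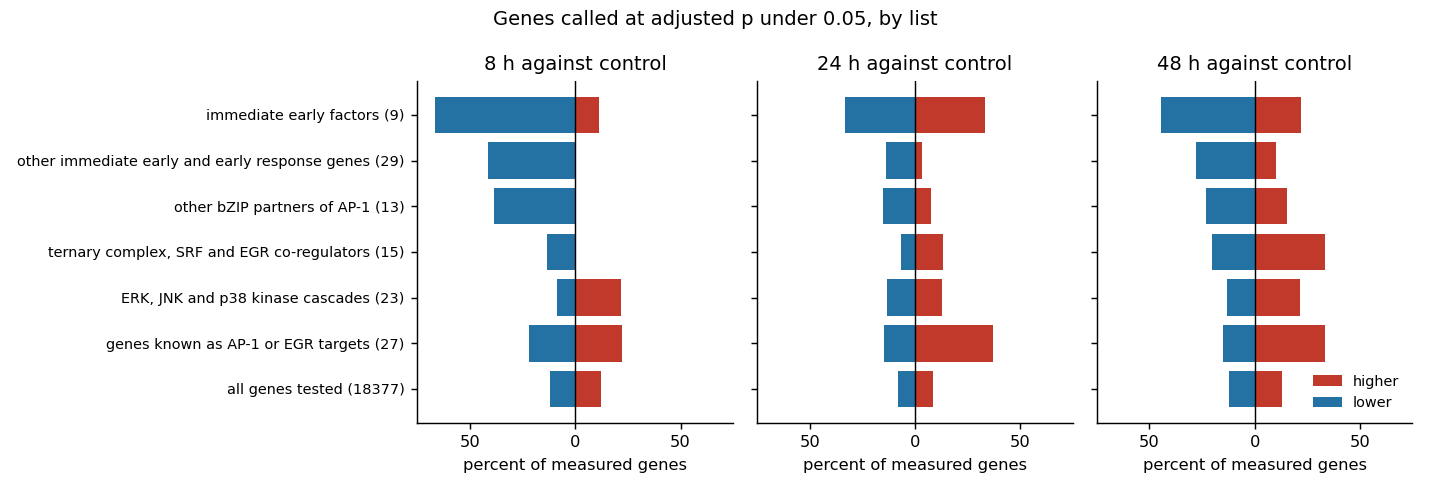
Percent of the measured genes of each list called higher (right) or lower (left) than control at an adjusted p under 0.05, at 8, 24 and 48 h, with the number measured in brackets and all 18377 genes as the last bar. At 8 h 6 of 9 members, 12 of 29 other early response genes and 5 of 13 leucine zipper partners are lower, beside 12.0% of all genes. The lists were chosen with earlier results of these data known.

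The genes nearest to each member were found by the smallest root mean square difference of log2 values over the 12 arrays, a description of likeness with no test. Closest to EGR1 was CTH, of cysteine synthesis, at 0.20, with group means of -1.41, -1.06 and -1.61 at 8, 24 and 48 h, followed by CREB3L1 at 0.30 and RFX6 at 0.32. Closest to FOS were FAM149A and PTGS2, both at 0.11, and the chemokine CXCL11 at 0.13. JUN was nearest to C1RL (0.07), TRIM5 (0.09) and CEP57 (0.09), and C1RL had means of -0.44, 0.25 and 0.13. JUND was nearest to TANGO2, CMTM3 and the apoptosis inhibitor BCL2L1, each at 0.07, and BCL2L1 had means of -0.14, 0.35 and 0.33. JUNB was nearest to PRR15 (0.09), the pyruvate dehydrogenase kinase PDK4 (0.10) and the lipid synthesis factor SREBF1 (0.10). FOSL1 was nearest to IGFLR1 (0.05), OSGIN1 (0.06) and C19orf47 (0.06). FOSB was nearest to PNPLA6 (0.04), CRAT (0.06) and TRPC4AP (0.06), and IER2 to DCAF11 (0.06), TESC (0.07) and MGMT (0.07). Only EGR1 had no gene within 0.15 among these 8 members. The distance is not scaled to the size of a change, and few genes fell as far as EGR1, so its larger distances do not show a distinct pattern.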

How the data were processed

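Per the file headers and the values themselves, the deposited table holds 1 value per probe set and array for 28869 probe sets. Per the submitters' processing notes, the authors used RMA, which corrects background, normalizes and summarizes probes to log2 values, with build hg19; no version was named. In each of the 28869 probe sets the 3 control arrays have a median of exactly 0, so the deposited log2 values are ratios to it, a step that no source used here gives.

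Of the probe sets, 19310 named 1 gene, 1752 several and 7807 none here. Probe sets of a gene were averaged (685 of 18377 genes; each member had 1). All 12 arrays entered 1 limma 3.58.1 fit (R 4.3.3) with a mean per group, 8 residual and 4.71 prior degrees of freedom. The 6 comparisons between groups were two-sided, with calls at an adjusted p under 0.05 (Benjamini-Hochberg, all genes together), as for the F test. Tested on simulated data for 8 h against control over 18377 genes, the fit recovered 91% of changes of 0.5 and 100% of changes of 1. The simulation changed 100 genes by each size, far fewer genes than were called here, with the same independent noise on every array. Arrays of unequal quality were thus not represented. Changes smaller than 0.5, the size of several called differences of members, were not simulated, and false calls are not given here. Figures used matplotlib 3.10.9.

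The members, the gene lists and the motifs were chosen with earlier results of these data known; the TATA box was added after the sequences were seen. All members are named. From each list the rule takes up to 3 called genes with the largest change against control, and for each member called by the F test the 3 nearest genes. MAFF is in 2 lists. The number of arrays limits precision. Alternatives were the replicate block, array weights, centring, quantile normalization, a robust prior, fits of 2 groups, single probe sets, stricter calls and leaving out each array. No filter on low values was possible without levels.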

Additional observations from a re-analysis of the deposited data

Results flagged for a closer look

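For several members the difference from control was not the same at every time, by the limma test of the 2 treated groups against each other. Between 24 and 8 h the difference was 0.69 for JUN, 0.58 for JUND, 0.26 for FOSB and 0.21 for EGR1, all higher at 24 h. Between 48 and 24 h it was -0.84 for EGR1, -0.27 for FOS and -0.19 for JUN, all lower at 48 h. Between 48 and 8 h it was 0.54 for JUND, 0.51 for JUN and 0.38 for FOSB, higher at 48 h, and -0.63 for EGR1, -0.19 for FOS and -0.19 for FOSL1, lower at 48 h. JUN and JUND passed the threshold below control at 8 h and above it at 24 h. Of the 12 fits that left out 1 array, 8 ended the call of EGR1 and 9 that of FOSB between 24 and 8 h. Between 48 and 24 h, 7 ended that of JUN, and between 48 and 8 h, 3 ended that of FOS and 4 that of FOSL1. The other calls between treated groups held in all 12. Against control, 7 ended the call of IER2 and 4 that of JUND at 8 h, and 3 that of JUN at 24 h. At 48 h, 3 ended the call of IER2 and 2 that of FOSL1. The other calls of members against control held in all 12.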

How the results depend on the processing

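Among the members, the called differences kept their sign under every alternative run, and the falls of EGR1 and FOS against control at 8, 24 and 48 h were called under every one. Of 3087 values of single genes under an alternative, 2805 kept their status, which includes values that were not called in either fit. Of the others, 238 lost a call, 44 gained one and 0 reversed. The replicate numbers were not taken to pair the arrays, since the deviations of same-numbered arrays of different groups were not all correlated over 0.1. That bar is not a test of pairing, so whether the arrays were paired is not settled. The deviations of same-numbered arrays were correlated at -0.45 to 0.47 (median 0.15, 11 of 18 over 0.1), and those of different-numbered arrays at -0.67 to 0.60 (median -0.16, 14 of 36). With the replicate block, 7, 6 and 6 members were called against control at 8, 24 and 48 h and 5 from 8 to 24 h (JUNB, adjusted p = 0.0347, was gained), and 4718, 3390 and 5006 genes were called against control, more than the 4439, 3070 and 4649 of the main fit.

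Over the fits that left out 1 array, 5 to 8 members were called at 8 h, 5 to 7 at 24 h and 5 to 6 at 48 h, 2 to 5 from 8 to 24 h, 2 to 3 from 24 to 48 h, 4 to 6 from 8 to 48 h and 6 to 8 by the F test. Of all 18377 genes, the same fits called 3403 to 5161 at 8 h, 2102 to 3938 at 24 h and 3704 to 4749 at 48 h. They called 2726 to 4294 from 8 to 24 h, 1103 to 2149 from 24 to 48 h and 4726 to 5756 from 8 to 48 h. The F test called 6261 to 7720. For the lists at 8, 24 and 48 h in turn, the ranges were 9 to 13, 4 to 7 and 10 to 12 early response genes, 3 to 5, 1 to 3 and 4 to 6 leucine zipper partners, 2 to 4, 1 to 4 and 6 to 9 co-regulators, 6 to 7, 3 to 7 and 7 to 9 kinases, and 8 to 13, 9 to 14 and 12 to 14 targets.

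Quantile normalization gave 4 members at 8 h, 2 at 48 h, 2 from 8 to 24 h, 1 from 24 to 48 h and 5 by the F test. It gave 6, 3 and 3 early response genes at 8, 24 and 48 h, 2 leucine zipper partners at 8 and at 48 h, 1, 1 and 0 co-regulators, 3 kinases at 8 h and 5 at 48 h, and 7, 6 and 6 targets. By construction it gives all arrays 1 common distribution, and so widens the control arrays, whose SD over genes was 0.06 to 0.09, and narrows treated arrays, at 0.21 to 0.31. It called 1869, 1581 and 1673 genes at 8, 24 and 48 h, 1454 from 8 to 24 h, 184 from 24 to 48 h, 2691 from 8 to 48 h and 3422 by the F test, against 4439, 3070, 4649, 3564, 1860, 5464 and 7122. Array weights gave 8 members from 24 to 48 h, 6 co-regulators at 8 h, 14 early response genes, 6 leucine zipper partners and 8 co-regulators at 24 h, and 14 kinases at 48 h; they called 6079 genes at 24 h, 7455 at 48 h, 5901 from 24 to 48 h, 8569 from 8 to 48 h and 11190 by the F test. Centring each array gave 4 co-regulators at 8 h, and the fit of only 2 groups gave 5 at 48 h; that fit called 1022 genes from 24 to 48 h. The cause of the changed calls was not tested for these 3 settings or for quantile normalization. Without 24 h replicate 1 or 3, 1104 and 1103 genes were called from 24 to 48 h.

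With every probe set tested on its own, over 28869 tests, 2 members were called from 8 to 24 h and 3 leucine zipper partners at 8 h. At an adjusted p under 0.01, 2 members were called from 8 to 24 h, 3, 1 and 3 leucine zipper partners at 8, 24 and 48 h, 1 co-regulator at 24 h and 5 at 48 h, and 3 kinases and 9 targets at 24 h; all genes called were 2920 at 8 h, 1770 at 24 h, 2252 from 8 to 24 h and 819 from 24 to 48 h. With at least a 1.5-fold change as well, 2 members were called at each of 8, 24 and 48 h, and 1 in each comparison of treated groups. In the same setting 2, 2 and 3 early response genes, 1, 0 and 0 leucine zipper partners, 0 co-regulators at each time, 2, 0 and 1 kinases, and 3, 4 and 6 targets were called, and 598, 442 and 688 genes against control, 435 from 8 to 24 h, 136 from 24 to 48 h and 1033 from 8 to 48 h. That minimum fold moved the share of higher calls from 50.1% to 36.6% at 8 h, from 52.0% to 41.2% at 24 h and from 51.9% to 75.7% from 24 to 48 h. No level is left after the centring, so signal over background limits each gene to an unknown degree.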
